A study of Mus musculus with 30 samples.

Results

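The lipin family has 3 genes in the mouse, Lpin1, Lpin2 and Lpin3, and their RNA was measured in the livers of mice that had carbon black nanoparticles placed in the airways and of control mice. A probe was taken as a lipin probe when the transcript it was designed on belongs to one of these genes. This gave 5 probes for 3 genes, out of 41174 probes and 17016 genes on the array. 3 probes of Lpin1 lie on the transcript NM_015763 (A_52_P483105, A_52_P483101 and A_52_P483104), and 1 probe each represents Lpin2 (NM_022882, A_51_P370438) and Lpin3 (NM_022883, A_51_P345975). Lpin2 had been picked out by its difference between exposed and control animals and by its levels over runs of animal numbers, and Lpin1 and Lpin3 were added as its paralogs. The lipin values for both contrasts are therefore a description without a test.

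Lipins are phosphatidate phosphatases. They remove the phosphate from phosphatidate to give diacylglycerol, the branch point from which liver makes triglyceride, phosphatidylcholine and phosphatidylethanolamine. Lipin 1 can also enter the nucleus and act as a coactivator with PGC-1alpha and PPARalpha, and in mouse liver its gene is known to be induced by fasting and glucocorticoids. Lipin 2 is the family member regarded as the main phosphatidate phosphatase of liver, while lipin 3 is best known from intestine and is found with lipin 1 in other tissues.

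All animals were female C57BL/6 mice that were 5 to 6 weeks old when acquired, and the labels used here give no time between instillation and sampling. The exposed group (14 animals) was instilled through the trachea with 0.162 mg of Printex 90 carbon black nanoparticles, suspended in saline with acellular lavage fluid. The control group (16 animals) is labelled only with the treatment none, so the labels used here do not say whether controls received the vehicle, and the series text speaks of fewer animals per group (6) than were analysed. Each animal had 1 array, on which total liver RNA carried Cy5 and a commercial universal mouse reference RNA carried Cy3, with no dye swap. Every lipin value is a log2 ratio of liver over reference, and such ratios cannot rank one gene's amount of RNA against another's. Liver is a mixture of cell types, and in such bulk RNA fewer cells of a type and less RNA per cell cannot be told apart.

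Sequences around the annotated starts are shown because the levels of the 3 genes are set against each other animal by animal further on, and the windows show what the starts of the family members share and where they differ. Each window runs from 250 bases before to 50 after the start on the gene's strand (RefSeq, mouse build GRCm38.p6). All 3 genes matched the table, Lpin1 with 1 window, Lpin2 with 3 and Lpin3 with 2, and the first window of each gene is printed. The Lpin1 window is chr12:16610917-16611216 on the minus strand, the Lpin2 window chr17:71183282-71183581 on the plus strand and the Lpin3 window chr2:160880420-160880719 on the plus strand. Capitals mark the E-box CACGTG, a sequence bound by basic helix-loop-helix factors such as CLOCK, MYC and SREBP proteins.
Lpin1: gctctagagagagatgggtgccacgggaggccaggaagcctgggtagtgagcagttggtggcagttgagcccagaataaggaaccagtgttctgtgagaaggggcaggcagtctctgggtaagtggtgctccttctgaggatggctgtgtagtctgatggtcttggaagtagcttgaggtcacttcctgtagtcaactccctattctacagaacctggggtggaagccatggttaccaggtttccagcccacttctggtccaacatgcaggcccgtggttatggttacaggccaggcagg
Lpin2: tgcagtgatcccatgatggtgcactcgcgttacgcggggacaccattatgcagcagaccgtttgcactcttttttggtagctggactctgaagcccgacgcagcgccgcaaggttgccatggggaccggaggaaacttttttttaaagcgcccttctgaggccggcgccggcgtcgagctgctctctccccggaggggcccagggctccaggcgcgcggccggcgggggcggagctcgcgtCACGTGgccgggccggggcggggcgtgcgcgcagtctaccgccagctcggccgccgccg
Lpin3: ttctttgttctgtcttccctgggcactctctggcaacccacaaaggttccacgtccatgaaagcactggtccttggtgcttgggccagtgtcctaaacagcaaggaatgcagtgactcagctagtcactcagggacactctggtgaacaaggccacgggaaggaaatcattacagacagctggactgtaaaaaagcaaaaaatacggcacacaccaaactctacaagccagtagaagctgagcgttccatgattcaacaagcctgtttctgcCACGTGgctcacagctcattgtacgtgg
The 3 motifs searched were the E-box CACGTG, the cAMP response element TGACGTCA, and ACANNNTGT, the spaced core of glucocorticoid response elements. Each reads the same on both strands and none overlaps another. The Lpin2 window held 1 CACGTG, whose first base lies 9 bases before the start, and the Lpin3 window held 1 CACGTG that begins 22 bases after the start. CACGTG was present in 7.15% of 32851 windows of the same length, ACANNNTGT in 6.85% and TGACGTCA in 1.79%. No match to the 3 motifs was found in the printed Lpin1 window, or in the other Lpin2 and Lpin3 windows, and ACANNNTGT and TGACGTCA were found in no lipin window. A match is a description of letters and not a site shown to be used.

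The 30 arrays had median Cy5 signals between 104 and 196 and between 42.8% and 79.2% of probes well above background in Cy5. They lay on 9 slides, of which 7 held both groups, with exposed animals on positions 3 and 4 and controls on positions 1 and 2. Group and position within a slide therefore cannot be told apart. In each group the animal numbers form 3 blocks, split wherever consecutive numbers lie more than 10 apart and called runs here. Exposed runs 1, 2 and 3 held 4, 5 and 5 animals and control runs 6, 5 and 5. What a run stands for is not given in the labels. They also do not say whether a run of one group corresponds to a run of the other, so runs were not matched. All 5 lipin probes were well above background in Cy5 on 30 of 30 arrays, none was saturated, and no lipin spot was an outlier. The Lpin2 probe was above background in Cy3 on 29 of 30 arrays and the others on 30. Of 7 hepatocyte markers 6 could be tested, and 6 of 6 were higher in control liver than in the reference, with mean log2 ratios of 5.14 in exposed and 5.30 in control animals.

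In the livers of control mice all 3 lipins were higher than in the reference RNA, Lpin1 and Lpin2 by more than Lpin3. Lpin1 stood at a log2 ratio of 1.61 ± 0.25 over the reference (SE, n = 16; 3.05-fold; limma adjusted p = 5.48e-06) by its representative probe A_52_P483105. Its probe A_52_P483101 gave 2.80 ± 0.25 (6.96-fold; limma adjusted p = 2.15e-09) and A_52_P483104 gave 1.81 ± 0.24 (3.50-fold; limma adjusted p = 7.01e-07). Lpin2 stood at 1.02 ± 0.08 (SE, n = 16; 2.02-fold; limma adjusted p = 1.05e-10), and at 1.72 when Agilent's processed signals were used. Lpin3 stood at 0.36 ± 0.04 (SE, n = 16; 1.29-fold; limma adjusted p = 1.61e-07). Each probe was above 0 in 16 of 16 control animals. Among all 23607 tested probes 46.6% were higher in control liver than in the reference and 42.1% lower, so a call in this comparison is common. The dyes were not swapped, and a dye bias of a probe would enter these ratios and was not tested.

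Lpin1 had the widest range of the family between animals. In exposed livers its log2 ratio ran from 1.17 over a median of 2.65 to 3.98 (n = 14), and in control livers from 0.09 over a median of 1.5 to 4.19 (n = 16). The groups overlapped over most of this range, and the highest value of all was that of a control, animal 573. Exposed livers averaged 2.65 ± 0.95 (SD, n = 14) and control livers 1.61 ± 0.96 (SD, n = 16), a difference of 1.04 ± 0.32 (SE; 2.06-fold; 95% confidence interval 0.38 to 1.70). The other Lpin1 probes gave 1.03 ± 0.33 for A_52_P483101 and 0.96 ± 0.32 for A_52_P483104, and the 3 probes correlated over the 30 animals with r between 0.994 and 0.998. Of the 14 exposed livers 12 lay above the control median and 0 above the highest control.

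In log2 ratio Lpin2 differed less in size but with less overlap. Its log2 ratio ran from 1.07 over a median of 1.47 to 2.16 in exposed livers (n = 14), and from 0.54 over a median of 0.98 to 1.44 in control livers (n = 16). The lower 6 exposed livers lay within the range of the controls, the other 8 lay above the highest control, and 14 of 14 lay above the control median. Exposed livers averaged 1.54 ± 0.35 (SD, n = 14) and control livers 1.02 ± 0.28 (SD, n = 16). The difference was 0.52 ± 0.11 (SE, 1.44-fold, 95% confidence interval 0.30 to 0.75). Lpin2 was chosen on this contrast, and the interval takes no account of that choice, so it is not a test.

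Lpin3 covered a narrow range of log2 ratios that both groups shared. Its log2 ratio ran from 0.14 over a median of 0.43 to 0.55 in exposed livers (n = 14), and from 0.12 over a median of 0.36 to 0.66 in control livers (n = 16). The means were 0.41 ± 0.12 in exposed and 0.36 ± 0.16 in control livers (SD, n = 14 and 16). The difference was 0.05 ± 0.05 (SE; 1.03-fold; 95% confidence interval -0.06 to 0.15), and no exposed liver lay above the highest control.

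In the test over all probes, 4 of 23607 probes (0.0169%) passed between exposed and control animals, all higher in exposed livers, and 2875 had an unadjusted p under 0.05. Over the alternatives 0 to 143 passed, with 111 without control animal 573. The 5 lipin probes were not among the 4, and nothing is read from this because the contrast had served to choose Lpin2.

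**Figure D1:**
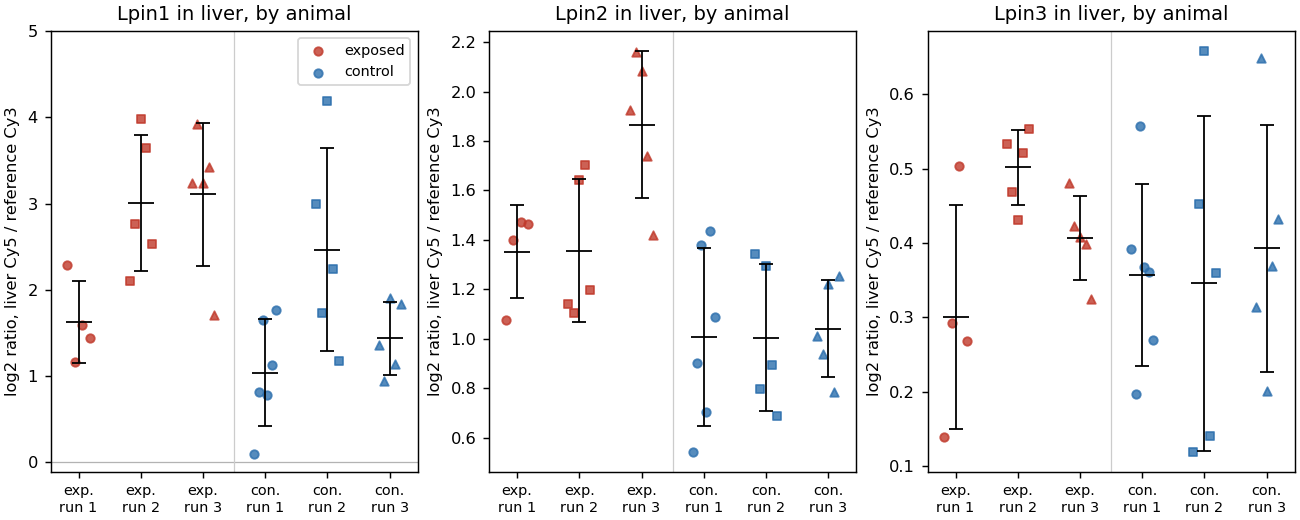
Log2 ratio of liver Cy5 over reference Cy3 of Lpin1, Lpin2 and Lpin3, 1 point per animal, with exposed runs 1 to 3 (red) left of control runs 1 to 3 (blue). Bars are the mean ± SD of a run, and the vertical scales differ between genes. Lpin2 of exposed run 3 stands highest in its panel with a mean of 1.87, and all Lpin3 values lie between 0.12 and 0.66.

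Set against the other members animal by animal, the exposed minus control difference of Lpin2 was larger than that of Lpin3 by 0.47 ± 0.12 (SE, without the slide block) and smaller than that of Lpin1 by 0.52, which the fit gives as -0.52 ± 0.30. The difference of Lpin1 exceeded that of Lpin3 by 0.99 ± 0.35.

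The spread of the log2 ratios between animals also differed between the members. The SD of Lpin1 was 0.95 in exposed and 0.96 in control livers, at the 99.8 percentile of the 12188 tested genes in both groups, where the median gene had an SD of 0.18. Between the lowest and highest animal Lpin1 differed 7.05-fold in exposed and 17.2-fold in control livers. Lpin2 lay at the 90.7 percentile in exposed and the 80.9 percentile in control livers, with ranges of 2.12-fold in exposed and 1.86-fold in control livers. Lpin3 lay at the 12.0 percentile in exposed and the 39.4 percentile in control livers, with ranges of 1.33-fold in exposed and 1.45-fold in control livers. The Lpin2 and Lpin3 probes were dimmer, with mean normalized log2 Cy5 signals in exposed livers of 8.31 and 7.74, against 11.64 for Lpin1 (A_52_P483105). With Agilent's processed signals the exposed minus control difference was 1.06 for Lpin1, 0.71 for Lpin2 and 0.05 for Lpin3. The part of signal strength and of the offset of 50 in the spreads and differences of the members was not tested.

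The runs of animal numbers differed most for Lpin1, and in both groups. In exposed run 1 the Lpin1 log2 ratios were 2.29, 1.17, 1.60 and 1.45 (mean 1.62 ± 0.48, SD). In exposed run 2 they were 2.10, 2.76, 3.98, 3.65 and 2.53 (mean 3.01 ± 0.79), and in exposed run 3 they were 3.25, 3.92, 3.24, 3.43 and 1.71 (mean 3.11 ± 0.83). Exposed run 1 was low apart from animal 176, and run 3 was high apart from animal 216. In control run 1 the values were 0.09, 0.81, 1.65, 0.78, 1.13 and 1.77 (mean 1.04 ± 0.62). Control run 2 had 2.99, 1.73, 4.19, 2.24 and 1.18 (mean 2.47 ± 1.17) and control run 3 had 1.36, 0.94, 1.91, 1.14 and 1.83 (mean 1.44 ± 0.42). The run means of Lpin1 thus spanned 1.48 within the exposed group and 1.43 within the control group, more than the difference between the groups. The fits of the group differences hold no term for runs, so the intervals given above take no account of this grouping of animals.

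Lpin2 varied over the runs of the exposed group and hardly over those of the control group. Exposed run 1 had Lpin2 log2 ratios of 1.07, 1.4, 1.47 and 1.46 (mean 1.35 ± 0.19, SD), and exposed run 2 had 1.14, 1.11, 1.64, 1.70 and 1.20 (mean 1.36 ± 0.29). Exposed run 3 had 1.93, 2.16, 2.08, 1.74 and 1.42 (mean 1.87 ± 0.30). All but animal 216 of run 3 lay above every other animal of the study. Control run 1 had 0.54, 0.90, 1.38, 0.70, 1.44 and 1.09 (mean 1.01 ± 0.36), control run 2 had 1.34, 0.80, 1.30, 0.90 and 0.69 (mean 1.0 ± 0.30), and control run 3 had 1.01, 0.94, 1.22, 0.78 and 1.25 (mean 1.04 ± 0.20). The run means spanned 0.51 within the exposed and 0.04 within the control group, and each exposed run mean was above each control run mean.

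Lpin3 run means were 0.30 ± 0.15, 0.50 ± 0.05 and 0.41 ± 0.06 in exposed runs 1, 2 and 3 (SD), against 0.36 ± 0.12, 0.35 ± 0.22 and 0.39 ± 0.17 in the control runs. The lowest exposed animal, 176 at 0.14, lay in run 1, and the 5 animals of run 2 lay between 0.43 and 0.55. Leaving out exposed run 1 moved the exposed minus control difference to 1.45 for Lpin1, 0.61 for Lpin2 and 0.10 for Lpin3. Leaving out control run 1 moved it to 0.66 for Lpin1 and 0.50 for Lpin2, with 0.05 for Lpin3.

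The same arrays were also laid out by slide. Lpin2 had been chosen on its difference over these arrays, so its values by slide are a description and no separate support. On the 7 slides with both groups Lpin2 was higher in exposed than in control animals on 7 of 7, by 0.20 to 0.82 with a median of 0.58. For Lpin1 exposed animals exceeded controls on 6 of 7 slides, with differences of -0.37 to 2.5 and a median of 1.33. Lpin3 was higher on 4 of 7, with differences of -0.12 to 0.24 and a median of 0.16.

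**Figure D2:**
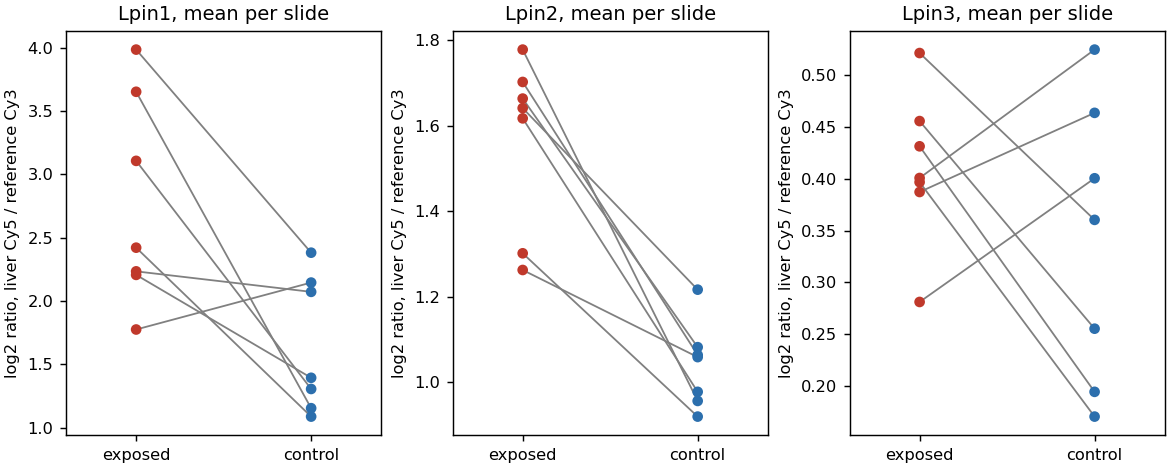
Mean log2 ratio of liver Cy5 over reference Cy3 of each lipin on the 7 slides that held both groups, exposed (red) on the left and control (blue) on the right, with a line joining the 2 groups of a slide. The lines of Lpin2 all go down toward the control mean, those of Lpin1 on 6 of 7 slides and those of Lpin3 on 4 of 7. Lpin2 had been chosen on its difference over arrays that include these. The vertical scales differ.

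The dyes were also compared separately. For this the average log2 signals of both dyes were, after the loess step, set to a common distribution over arrays (quantile normalisation). The values of both dyes come out of the same loess fit, so those of Cy3 are not raw reference signals. In normalized log2 Cy5 signal exposed minus control was 0.95 ± 0.34 for Lpin1 (A_52_P483105), 0.44 ± 0.10 for Lpin2 and 0.14 ± 0.08 for Lpin3 (SE). In Cy3, which holds the same reference RNA on every array, it was -0.09 ± 0.10 for Lpin1 (limma adjusted p = 0.927), -0.09 ± 0.06 for Lpin2 (adjusted p = 0.889) and 0.09 ± 0.05 for Lpin3 (adjusted p = 0.876). None of the 3 passed in the reference channel, where 0 of 23607 probes passed and 1288 (5.46%) had an unadjusted p under 0.05.

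Livers with more Lpin1 tended to have more Lpin2, in both groups, by a correlation that did not pass after adjustment. The Pearson correlation of Lpin1 with Lpin2 was 0.61 in the 14 exposed animals (permutation p = 0.0237, adjusted p = 0.0712 over 6 relations; Spearman rho 0.57, permutation p = 0.0339, adjusted p = 0.115). In the 16 control animals it was 0.59 (permutation p = 0.0118, adjusted p = 0.0707; rho 0.52, permutation p = 0.0382, adjusted p = 0.115). Without the 2 animals farthest from the median of Lpin1 the correlation was 0.65 in exposed animals (permutation p = 0.0234, adjusted p = 0.140) and 0.52 in control animals (permutation p = 0.0573, adjusted p = 0.172). With run means removed and animals permuted within runs it was 0.68 in exposed animals (permutation p = 0.0241, adjusted p = 0.0724) and 0.79 in control animals (permutation p = 0.00052, adjusted p = 0.00312). With slide means removed and animals permuted within slides it was 0.72 in exposed (permutation p = 0.156) and 0.64 in control animals (permutation p = 0.108).

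Correlations with Lpin3 were smaller, though less so with slide means removed. Lpin1 with Lpin3 gave 0.37 in exposed animals (permutation p = 0.199; rho 0.29) and 0.07 in control animals (permutation p = 0.802; rho -0.16), and Lpin2 with Lpin3 gave 0.16 in exposed animals (permutation p = 0.591; rho 0.05) and 0.06 in control animals (permutation p = 0.836; rho 0.02). All 4 had adjusted p of 0.398 or above. With slide means removed and animals permuted within slides, Lpin2 with Lpin3 gave 0.18 in exposed (permutation p = 0.843) and 0.61 in control animals (permutation p = 0.102). Lpin1 with Lpin3 then gave 0.52 in exposed (permutation p = 0.221) and 0.49 in control animals (permutation p = 0.687).

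**Figure D3:**
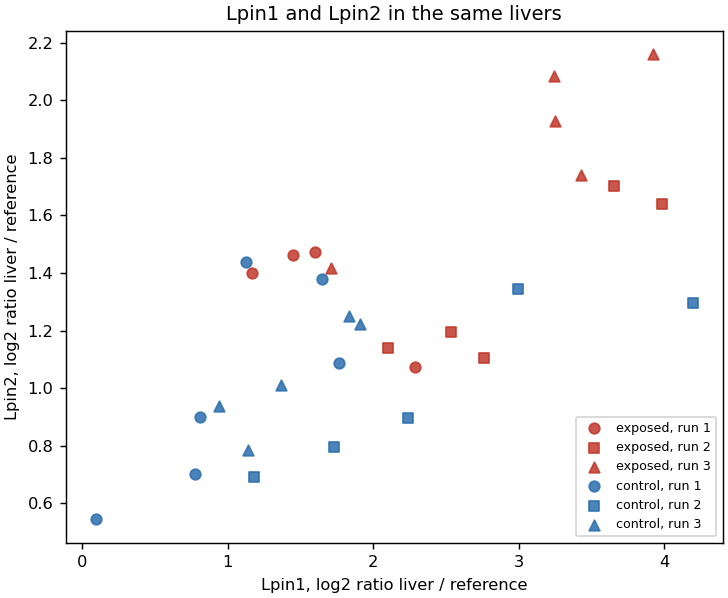
Lpin1 (horizontal) against Lpin2 (vertical), log2 ratio of liver over reference, 1 point per animal, exposed red and control blue with a symbol for each run. Livers high in one gene tend to be high in the other within each group (r = 0.61 in exposed and 0.59 in control animals), and 4 animals of exposed run 3 stand at the top right.

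Around the lipins, 90 genes of lipid synthesis, lipolysis, lipin partners and fasting responses were listed, of which 86 were on the array and 82 could be tested. Between exposed and control livers none passed in either direction by limma (0 of 82, against 0.0169% of all probes and 0.0164% of genes with 1 probe each), and 14 higher and 6 lower had an unadjusted p under 0.05, against 12.2% of all probes and 12.3% of genes with 1 probe each. The median difference of the 82 genes was 0.01, against -0.001 over all 12188 tested genes, and 46 of 82 differences were positive, against 49.5% of all genes with 1 probe each. In control livers 58 of the 82 were higher than in the reference and 20 lower, against 45% of all genes higher and 46.4% lower.

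Upstream of the lipins, the acyltransferases that build phosphatidate had 0 of 10 members past the threshold, with 4 positive differences. Gpam, the mitochondrial glycerol-3-phosphate acyltransferase that begins glycerolipid synthesis, averaged 1.58 ± 0.37 in exposed and 1.14 ± 0.46 in control livers (SD), a difference of 0.41 ± 0.14 (SE; limma adjusted p = 0.207). Gpat4, an acyltransferase of the endoplasmic reticulum, stood at -0.18 ± 0.08 (adjusted p = 0.339), and at -0.03 and 0.00 by its other probes.

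Of the other enzymes that dephosphorylate phosphatidate and the complex that dephosphorylates lipins, 0 of 5 passed. The membrane phosphatases Plpp1 and Plpp2 stood at 0.19 ± 0.08 (adjusted p = 0.327) and 0.12 ± 0.05 (adjusted p = 0.316). Neither member of the lipin phosphatase complex, Ctdnep1 or Cnep1r1, passed.

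Downstream, 0 of 4 genes from diacylglycerol to triglyceride passed. Dgat1, which adds the last acyl chain, averaged 0.40 ± 0.10 in exposed and 0.25 ± 0.12 in control livers (SD), a difference of 0.15 ± 0.04 (SE; adjusted p = 0.146). Its other probe gave 0.17, and Mogat1, a monoacylglycerol acyltransferase, stood at 0.09 ± 0.06 (adjusted p = 0.609).

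On the branch to phosphatidylcholine and phosphatidylethanolamine 0 of 10 tested genes passed, with 4 positive differences. Chka, choline kinase alpha, averaged 0.11 ± 0.36 in exposed and 0.66 ± 0.55 in control livers (SD), with a difference of -0.56 ± 0.16 (SE; adjusted p = 0.146) and -0.53 by its other probe. Etnk2, an ethanolamine kinase, averaged 2.37 ± 0.36 in exposed and 1.80 ± 0.61 in control livers, with a difference of 0.55 ± 0.16 (adjusted p = 0.154).

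Among the 5 tested genes from phosphatidate to CDP-diacylglycerol and its products, and the 6 diacylglycerol kinases, which run the lipin reaction backwards, 0 passed and 0 had an unadjusted p under 0.05. Pgs1 and Crls1, of cardiolipin synthesis, stood at 0.07 ± 0.07 and -0.06 ± 0.08, and the kinases Dgke and Agk at -0.12 ± 0.07 and 0.04 ± 0.05. Of 15 lipolysis and lipid droplet genes 0 passed. Bscl2, the droplet assembly protein seipin, stood at 0.16 ± 0.05 (adjusted p = 0.215). Abhd5, the activator of adipose triglyceride lipase, stood at 0.18 ± 0.07 (adjusted p = 0.250), and at -0.03 by its other probe.

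Of 14 transcription and signalling partners 0 passed, with 10 positive differences. The estrogen related receptor gene Esrra stood at -0.20 ± 0.07 (adjusted p = 0.246) and the sterol regulator Srebf2 at 0.23 ± 0.09 (adjusted p = 0.286). Of 13 fasting and glucocorticoid responsive genes 0 passed, 4 higher and 1 lower at an unadjusted p under 0.05, against 12.3% of all genes in either direction. The lower one was Pdk4, a kinase that inhibits pyruvate dehydrogenase, at -0.54 ± 0.26 (adjusted p = 0.396). The 13 differences ran from -0.54 to 0.86 with a median of 0.06, and 9 were positive. Klf9 and Per1 had the smallest p of the 13 and do not stand for the list. Klf9, a glucocorticoid-induced transcription factor, averaged 2.39 ± 0.39 in exposed and 1.83 ± 0.57 in control livers (SD), a difference of 0.58 ± 0.16 (SE; adjusted p = 0.148). Per1, a clock repressor that glucocorticoids induce, averaged -0.76 ± 0.57 in exposed and -1.54 ± 0.73 in control livers, a difference of 0.74 ± 0.22 (adjusted p = 0.160).

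**Figure D4:**
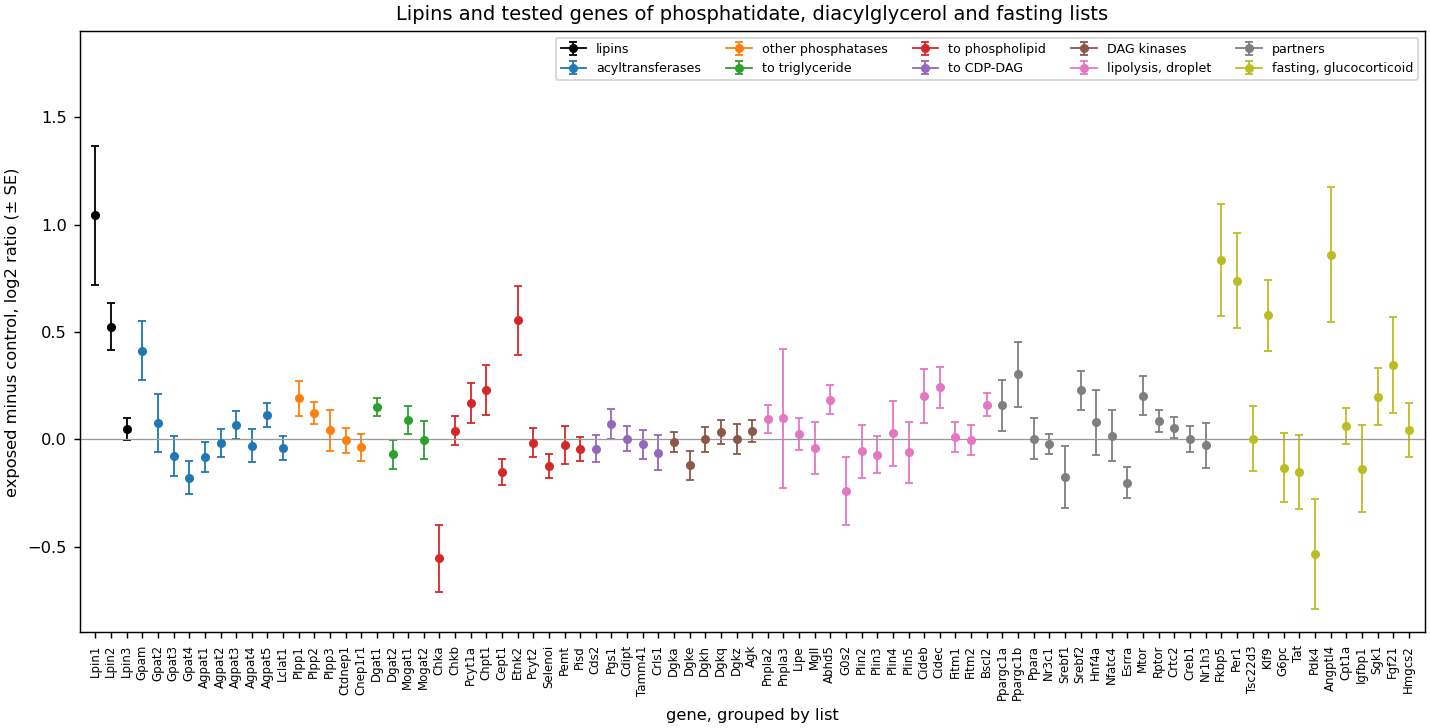
Exposed minus control difference in log2 ratio (± SE) of the 3 lipins and the 82 tested genes of the lists, grouped and coloured by list. Lpin1 at 1.04 has the largest difference shown, Chka at -0.56 is the lowest, and most of the 82 lie near 0; no list gene passed the threshold.

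Between the runs of exposed animals 9 of the 82 genes changed by the F test of limma, against 974 of 23607 probes (4.13%) and 5.18% of all genes with 1 probe each. At an unadjusted p under 0.05 the shares lay near each other, 21 of 82 (25.6%) against 22.6% of all genes with 1 probe each. Between control runs 0 of 82 passed, against 0.089% of all probes (0.107% with 1 probe per gene). There 12 of 82 (14.6%) had an unadjusted p under 0.05, against 6.99% of all probes. The difference between these counts was not tested. The clearest by its p was Chpt1, the cholinephosphotransferase that turns diacylglycerol into phosphatidylcholine, with run means of 3.13 ± 0.16, 2.31 ± 0.21 and 2.56 ± 0.24 in exposed runs 1, 2 and 3 (SD; limma adjusted p = 0.00301). Its control runs stood at 2.67, 2.32 and 2.18, and its 2 other probes did not pass (adjusted p = 0.580 and 0.193). Lclat1, an acyltransferase of lysocardiolipin and lysophosphatidate, was lowest in exposed run 1, at 0.59 ± 0.12, 0.89 ± 0.08 and 0.98 ± 0.10 (adjusted p = 0.00312). Cdipt, phosphatidylinositol synthase, was also lowest in exposed run 1, at -0.27 ± 0.17, 0.18 ± 0.04 and 0.05 ± 0.07 (adjusted p = 0.00315).

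The sterol regulator Srebf2 was highest in exposed run 1, at 0.17 ± 0.16, -0.42 ± 0.18 and -0.27 ± 0.22 (adjusted p = 0.0261). Its other probe did not pass (adjusted p = 0.619). Ppargc1b, the coactivator PGC-1beta, was highest in exposed run 3, at 0.25 ± 0.26, 0.57 ± 0.43 and 1.17 ± 0.35 (adjusted p = 0.0278), and its other probe passed too (adjusted p = 0.0297). Run 3 was also the run with the highest Lpin2. The control runs of Ppargc1b stood at 0.51, 0.25 and 0.38.

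G0s2, an inhibitor of adipose triglyceride lipase, and Lipe, hormone-sensitive lipase, were lowest in exposed run 2, G0s2 at 2.75, 1.77 and 2.55 (adjusted p = 0.0385) and Lipe at 0.81, 0.46 and 0.91 (adjusted p = 0.0414). Agpat4, at -3.15, -2.60 and -2.77 (adjusted p = 0.0330), and the kinase gene Dgkz, at -0.32, 0.10 and -0.05 (adjusted p = 0.0384), were lowest in exposed run 1. For Lipe and Agpat4 a further probe did not pass (adjusted p = 0.239 and 0.0550). Between exposed runs 2 of the 82 passed when slides were fitted as fixed effects, 1 with median centring of the arrays and 3 without the 5 arrays of the older software version. In the lists with no member past the threshold between exposed runs, the genes with the smallest p were Ctdnep1 (adjusted p = 0.0916) and Plpp3 (0.147), Mogat1 (0.190) and Mogat2 (0.473), and Cpt1a (0.143) and Fgf21 (0.340). Without exposed animal 177, 180, 195 or 196 the count was 3, 4, 4 and 4.

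Over the animals, with the mean of each group removed, the gene most like Lpin1 was Slc38a2, an amino acid transporter, with a Pearson r of 0.89 over 29 animals (0.84 in 14 exposed and 0.92 in 15 control animals, 1 control value being missing). Over 30 animals Pptc7 (0.82), Susd6 (0.82), Cdip1 (0.81) and Tob2 (0.80) followed, and Unkl (-0.75) and Fzd7 (-0.73) had the lowest r. For Lpin2 the order was Mknk2, a kinase of the translation factor eIF4E, at 0.75, then Map3k5 (0.72), Sorbs3 (0.71), Fam13a (0.70) and Klf13 (0.70), with Lonrf3 (-0.70) and Dnmt3b (-0.67) lowest. For Lpin3 the genes given are Trim26 (0.73), Stab2 (0.69), Cracr2b (0.69) and Tbc1d2b (0.69), with Eps8 (-0.70) and Clcf1 (-0.69) lowest. These are the extremes of 12188 genes over 30 arrays that share slides and processing, and they are a description. No gene was among the first 5 of more than 1 lipin.

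Within the lists, and chosen after their values were seen, Ppargc1a had the highest r with Lpin2, at 0.69 (0.81 in exposed and 0.53 in control animals; the 99.9 percentile of all genes), followed by Ppargc1b at 0.64 and Lpin1 at 0.59. Ppargc1a encodes PGC-1alpha, a coactivator induced in fasting liver. Its exposed minus control difference was 0.16 ± 0.12 (limma adjusted p = 0.625). For Lpin1 the highest among the lists were Per1 at 0.71, Angptl4, a fasting-induced inhibitor of lipoprotein lipase, at 0.62 (29 animals), and Lpin2 at 0.59. For Lpin3 they were the droplet protein gene Plin5 at 0.58, Dgat2 at 0.56 and the fatty acid receptor gene Ppara at 0.56. Within the groups Plin5 gave 0.19 in exposed and 0.71 in control animals, and Ppara 0.33 and 0.69. Dgat2 gave 0.53 in exposed and 0.59 in control animals.

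**Figure D5:**
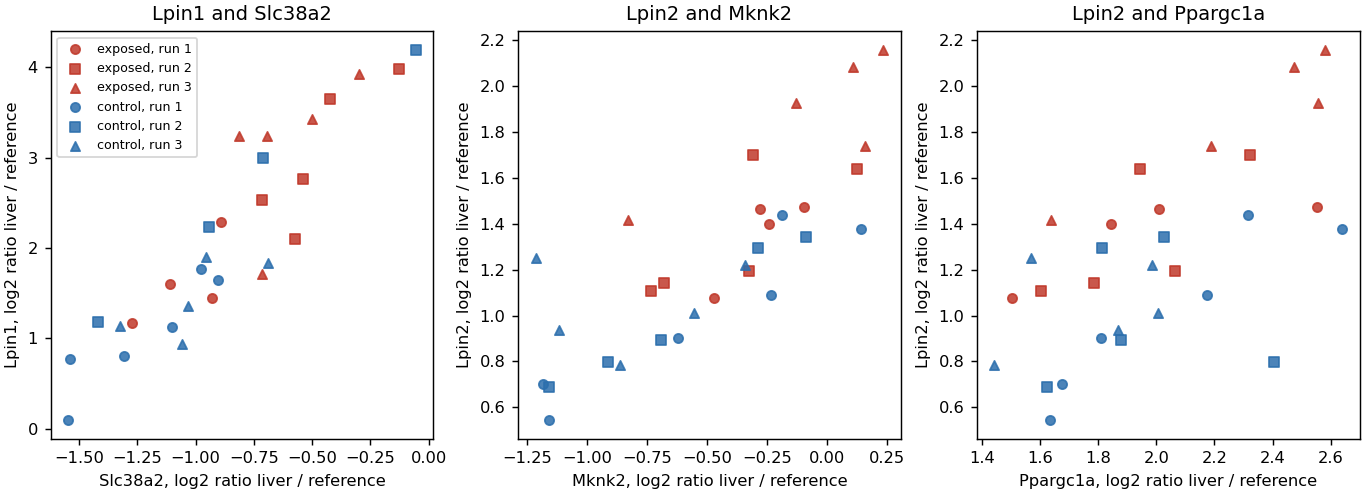
Lpin1 against Slc38a2, Lpin2 against Mknk2 and Lpin2 against Ppargc1a, as log2 ratios of liver over reference, 1 point per animal, exposed red and control blue with a symbol for each run. With group means removed r was 0.89 over 29 animals for Slc38a2, and 0.75 for Mknk2 and 0.69 for Ppargc1a over 30.

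Markers of other cell types were measured beside the lipins because Lpin1 is also expressed in fat and muscle. Of 6 adipocyte markers 5 (Adipoq, Plin1, Cfd, Lep and Retn) were on the array and well above background on at most 7 of 30 arrays, and Lep on 0. The remaining one, Fabp4, stood at 3.11 in exposed and 3.32 in control livers. Of 5 skeletal muscle markers 3 were not tested, and the mean of the other 2 was -0.88 in exposed and -0.88 in control livers. The neutrophil markers Ngp, Elane and Mmp8 were well above background on at most 2 of 30 arrays, and S100a8 on 17. Mean log2 ratios of the tested neutrophil markers (2 of 6, S100a8 and S100a9) were 1.88 in exposed and 1.51 in control livers. They ranged from 1.44 to 2.36 in exposed and from 0.78 to 2.34 in control animals. Those of Kupffer cell markers were 2.96 in exposed and 3.1 in control livers, and those of endothelial markers 2.81 in exposed and 2.78 in control livers. Stellate markers averaged 1.86 in exposed and 1.67 in control livers, and cholangiocyte markers -2.55 in exposed and -2.37 in control livers. By limma no marker passed between exposed and control livers (0 of 31, against 0.0164% of all genes). Of the 31 markers 5 (16.1%) had an unadjusted p under 0.05, against 12.3% of all genes. Between exposed runs 2 of 31 passed, against 5.18% of all genes, and 8 had an unadjusted p under 0.05 (25.8%, against 22.6% of all genes). Between control runs 0 passed, against 0.107% of all genes. There 1 marker had an unadjusted p under 0.05 (3.23%, against 6.99% of all probes). The 2 that passed between exposed runs were the hepatocyte gene Ttr and Fabp4. Ttr stood at 4.26 ± 0.99, 5.76 ± 0.38 and 5.70 ± 0.20 in exposed runs 1, 2 and 3 (SD, limma adjusted p = 0.00561). Fabp4 stood at 2.55 ± 0.31, 3.50 ± 0.31 and 3.15 ± 0.25 (adjusted p = 0.0260). Both were lowest in exposed run 1, as were Lpin1, Lpin3 and some markers that did not pass, so a low run 1 is not particular to them. Their control runs stood at 5.48, 5.40 and 5.27 for Ttr and at 3.32, 3.50 and 3.13 for Fabp4. The part of the markers in the lipin values and in the run differences of the list genes was not tested.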

How the data were processed

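Liver RNA of 30 mice was measured on 2-colour Agilent arrays, 1 array per mouse. Per the file headers, the deposited scanner files hold each spot's foreground and background intensity for Cy5 and Cy3, made by the authors with Agilent Feature Extraction (version 10.7.3.1 for 25 arrays, 10.1.1.1 for 5). A table of log2 ratios, deposited with the series, served as an alternative. On 14296 bright spots 30 of 30 columns correlated best with the array of the same animal (r 0.979 to 0.993, column medians -0.045 to -0.021), which sets its direction at Cy5 over Cy3.

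Median signals were background-corrected by normexp (offset 50) and normalised by loess within each array in limma 3.58.1 (R 4.3.3), giving control spots no weight. Spots marked as outliers were set to missing (1008 probe values). Spots of a probe were averaged, and symbols came from RefSeq accessions (GRCm38.p6), which named 24375 of 41174 probes. Probes entered the tests if their liver signal was flagged well above background on 14 or more arrays (23607 probes). Where a gene had several, the one brightest in Cy5 stood for it (12188 genes). Group and run differences were fitted with slide as a random block (limma, Benjamini-Hochberg over all tested probes, threshold 0.05), and scripts were tested on simulated data. Permutation tests were two-sided with 100000 resamples. Each p is the share of resamples whose correlation lay at least as far from none as the one observed. The main resamples permuted animals freely within a group, although animals share slides and runs. The number of arrays limits the precision.

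The members, lists and markers were chosen with earlier results of these data known. The genes named from each list were those past the threshold (at most 4 per contrast) or otherwise the 2 with the smallest p, and for each lipin the 5 genes with the highest r and the 2 with the lowest. Ppargc1a, Angptl4, Plin5, Dgat2, Ppara, Pdk4 and Cnep1r1, and the markers Ttr and Fabp4 singled out by run, fall outside this rule and were chosen after their values were seen. For Lpin3, 1 of the genes under this rule is not reported here. Runs are defined by animal numbers alone. Background correction, normalisation, filter, slide block, array weights, software version, run 1 of each group and single animals were varied.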

Additional observations from a re-analysis of the deposited data

How the results depend on the processing

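Each lipin kept the direction of its difference and of its level in the alternatives run. Over 42 alternatives the exposed minus control difference ranged from 0.66 to 1.45 for Lpin1, from 0.47 to 0.71 for Lpin2 and from 0.02 to 0.10 for Lpin3. Each lay within 1 SD of the value reported, the SD being that between animals within groups. This SD is wider than the SE of the difference, so the limit is a loose one. The level over the reference in control livers passed in 27 of 27 alternatives for each lipin and ranged from 1.42 to 1.98 for Lpin1, 0.92 to 1.72 for Lpin2 and 0.26 to 0.51 for Lpin3. List genes called between exposed and control livers numbered 0, against 2 with array weights (Chka and Klf9) and 0 to 4 when single animals were left out, with 4 without control animal 573. Between exposed runs the count was 9, against 1 with median centring, 2 with slide as a fixed block, 3 without the arrays of the older software version and 3 to 11 with single animals left out. The call of Chpt1 between exposed runs held in 41 of 41 alternatives, that of Lclat1 in 40, of Cdipt in 39, of Srebf2 in 33, of Agpat4 and Ppargc1b in 31, of Dgkz and Lipe in 27 and of G0s2 in 26. The causes were not tested.

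The correlation of Lpin1 with Lpin2 passed in the deposited table at 0.64 in exposed and 0.61 in control animals (permutation, adjusted p = 0.0452 each), and at 0.79 in control animals with run means removed. With median centring it was 0.60 in exposed and 0.51 in control animals (adjusted p = 0.133 each). Signs turned for Lpin2 with Lpin3 in the deposited table (-0.035 in exposed and -0.11 in control animals), and for Lpin1 with Lpin3 in exposed animals with run means removed (-0.094) and in control animals without 2 animals (-0.26). Without control run 1 Crls1 stood at 0.0049 and Agk at -0.010. Of all tested probes 4 passed between exposed and control animals, and 0 to 143 over the alternatives, highest with array weights and 111 without control animal 573. Between exposed runs 974 passed, and 125 to 1217 over the alternatives, lowest with median centring. Between control runs 21 passed, and 3 to 30 over the alternatives. No paired analysis was possible because the exposed and control animals share no animal number; slides entered as a block, and the 7 with both groups gave the differences within slides. Signal over background limits 5 adipocyte, 3 muscle and 3 neutrophil markers, which could not be tested.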
